A study of Schizosaccharomyces pombe with 10 samples.

Results

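The 7 transcripts pyp1, pyp2, ptc1, ptc3, srk1, cmk2 and oca2 of the fission yeast Schizosaccharomyces pombe were followed across 5 strains, with and without oxidative stress. These transcripts encode phosphatases of the MAP kinase Sty1, the kinases Srk1 and Cmk2 below it, and the kinase Oca2. They were taken by their systematic names from a count table of 7017 genes: pyp1 (SPAC26F1.10c), pyp2 (SPAC19D5.01), ptc1 (SPCC4F11.02), ptc3 (SPAC2G11.07c), srk1 (SPCC1322.08), cmk2 (SPAC23A1.06c) and oca2 (SPCC1020.10). All 7 reached a mean of 10 counts per 1000000 counts of the scaled library (CPM), as did 4983 genes of the table. PolyA RNA was sequenced from cells in exponential growth in minimal medium, treated with 1 mM H2O2 for 15 min or left untreated. The strains were STY, a sty1 deletion; HA, a sty1 deletion with HA-tagged Atf1; 10M, a sty1 deletion with the HA-tagged, unphosphorylatable Atf1.10M; 10D, a sty1 deletion with the HA-tagged, phosphomimicking Atf1.10D; and WT, the wild type. Each strain and treatment had 1 library, 10 in all, so no value has a replicate.

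Sty1 is the stress-activated MAP kinase of fission yeast. The kinase Wis1 activates it by phosphorylating a threonine and a tyrosine in its activation loop, and active Sty1 phosphorylates the bZIP transcription factor Atf1. Pyp1 and Pyp2 are tyrosine phosphatases that remove the tyrosine phosphate of Sty1, and Ptc1 and Ptc3 are phosphatases of the PP2C type that remove the threonine phosphate. Transcripts of pyp2 are known to depend on Sty1 and Atf1, which places Pyp2 in a negative feedback loop. Srk1 is a kinase phosphorylated by Sty1 that restrains the mitotic phosphatase Cdc25, Cmk2 is a related kinase also phosphorylated by Sty1, and Oca2 is a serine/threonine protein kinase.

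Levels are CPM scaled with edgeR's TMM factors, and their intervals are exact 95% Poisson intervals that cover counting error only; PCR copies of a molecule count as separate reads, so the true error may be larger. Library totals ran from 9178795 to 26503471 counts, and the 10M and 10D libraries were deeper than the rest. The sty1 transcript did not match every label. It was at 9.11 CPM in treated and 8.92 CPM in untreated STY, and at 305.2 CPM in treated and 266.7 CPM in untreated WT. The libraries labelled HA, 10M and 10D, also deletions by their labels, had sty1 levels from 101.4 CPM, in untreated 10M, up to 129.9 CPM, in treated 10D. Whether these reads come from an intact gene cannot be told from a count per gene, so HA, 10M and 10D mean here the libraries with those labels. The atf1 transcript also differed between strains: it was at 30.4 CPM in treated and 69.3 CPM in untreated STY, between 357.9 and 743.9 CPM in the HA, 10M and 10D libraries, and at 642.6 CPM in treated and 143.1 CPM in untreated WT. Its part in the results that follow was not tested.

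Atf1 and its partner Pcr1 are known to bind DNA at sites of the CRE type, with the core TGACGT, so the bases upstream of the annotated start of each transcript were searched for this core on both strands. The sequences are from the RefSeq assembly ASM294v3 and its own annotation; the authors' build is not given in the sources used here. The core was present within 250 bases upstream of srk1, with 3 matches, and of ptc1, with 1 match. It was present farther out, within 1000 bases, upstream of pyp2, with 2 matches, and of oca2, with 1 match. It was absent from both windows for pyp1, ptc3 and cmk2. Of 5113 such windows in the genome, 5.52% held the core within 250 bases and 14.9% within 1000 bases; only 3 windows, 0.0587%, held it 3 or more times within 250 bases, where a palindromic site, read on both strands, counts as 2 matches. The 4 stretches are shown, 5′ to 3′ on the strand of the gene, to place the matches, with the core or its reverse complement ACGTCA in capitals. They are the 150 bases before srk1 (chrIII:1301787-1301936, plus strand), the 150 bases before ptc1 (chrIII:2004386-2004535, plus strand), bases 350 to 251 before oca2 (chrIII:762875-762974, minus strand) and bases 1000 to 751 before pyp2 (chrI:5201656-5201905, plus strand).
srk1: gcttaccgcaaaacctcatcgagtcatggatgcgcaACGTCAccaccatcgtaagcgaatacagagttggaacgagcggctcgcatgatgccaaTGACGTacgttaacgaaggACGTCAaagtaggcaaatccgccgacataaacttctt
ptc1: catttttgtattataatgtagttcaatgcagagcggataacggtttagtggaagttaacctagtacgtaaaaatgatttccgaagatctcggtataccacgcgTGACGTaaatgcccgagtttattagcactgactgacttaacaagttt
oca2: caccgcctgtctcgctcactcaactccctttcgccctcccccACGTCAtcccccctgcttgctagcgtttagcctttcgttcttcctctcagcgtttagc
pyp2: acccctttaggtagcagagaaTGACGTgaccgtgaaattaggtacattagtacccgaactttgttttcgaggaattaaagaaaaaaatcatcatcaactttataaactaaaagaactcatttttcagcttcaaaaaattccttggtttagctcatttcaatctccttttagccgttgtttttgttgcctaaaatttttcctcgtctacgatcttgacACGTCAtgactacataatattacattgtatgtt

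The 3 cores of srk1 lay 114, 56 and 37 bases before the annotated start, counted at their first base, and that of ptc1 lay 47 bases before it. Those of pyp2 lay 979 and 783 bases before the start, and that of oca2 lay 308 bases before it. A match of these letters is a description of the sequence, not a measured binding site.

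**Figure D1:**
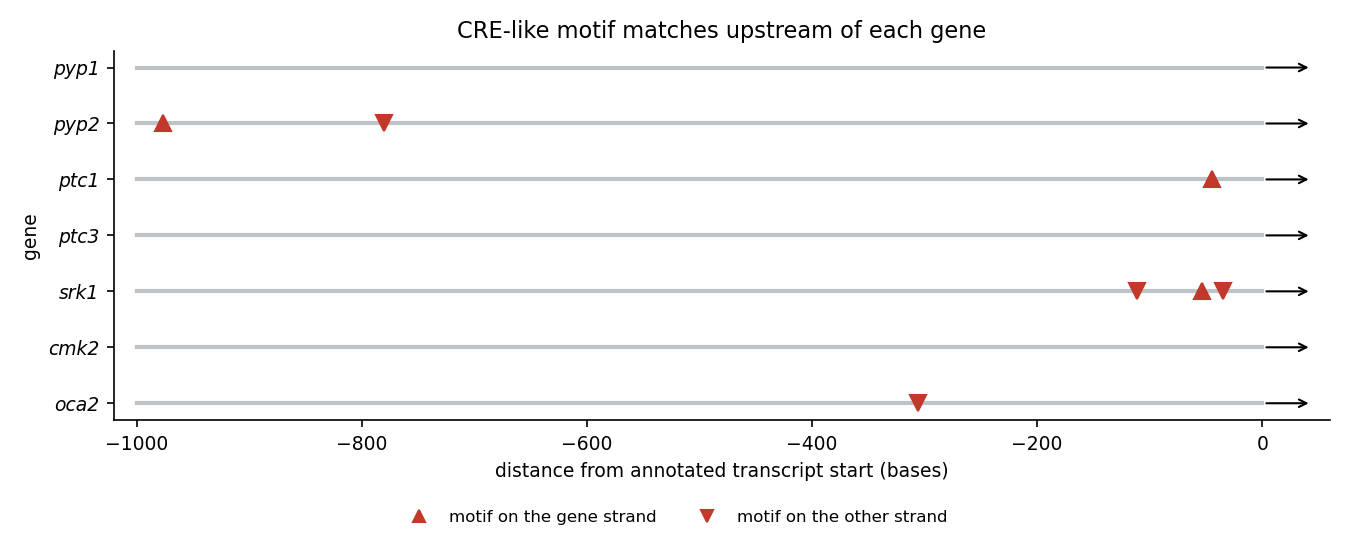
Positions of TGACGT or its reverse complement in the 1000 bases upstream of the annotated start of each of the 7 genes; the horizontal axis is the distance from the start in bases and each mark is a match. The 3 matches of srk1 and the match of ptc1 lie within 250 bases of the start, those of pyp2 and oca2 farther out, and pyp1, ptc3 and cmk2 have none.

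The inducible tyrosine phosphatase gene pyp2 was high in 1 library of the 10, treated WT. In treated libraries pyp2 was at 6.19 CPM in STY, 9.96 CPM in HA, 17.5 CPM in 10M, 13.8 CPM in 10D and 320.8 CPM in WT. In untreated libraries pyp2 was at 12.1 CPM in STY, 13.2 CPM in HA, 25.0 CPM in 10M, 22.3 CPM in 10D and 16.5 CPM in WT. Its treated level was below its untreated level in each of the 4 strains labelled as deletions. The log2 ratio of treated over untreated was 4.27 in WT (interval 4.06 to 4.51), and it lay between -0.95 in STY and -0.40 in HA for the others, with -0.68 in 10D and -0.51 in 10M. The HA interval, from -0.80 to -0.01, nearly reached 0. At 13.8 CPM after treatment, 10D was near the level of 10M and far from WT, with a log2 ratio of -4.52 to treated WT.

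Pyp1 is the other tyrosine phosphatase of Sty1, and its transcript separated the strains at rest. In treated libraries pyp1 was at 4.05 CPM in STY, 5.73 CPM in HA, 12.0 CPM in 10M, 87.2 CPM in 10D and 105.6 CPM in WT. In untreated libraries pyp1 was at 7.14 CPM in STY, 11.1 CPM in HA, 23.6 CPM in 10M, 130.3 CPM in 10D and 54.7 CPM in WT. All 4 libraries of 10D and WT were above all 6 libraries of STY, HA and 10M, a grouping read from these values. The split is not particular to pyp1, as ptc1 and other pathway genes, mpr1, wee1 and mak1 among them, showed it too. The share of all genes that split in this way was not counted. The highest of the 10 values was that of untreated 10D. Treated over untreated, the log2 ratio was 0.95 in WT (interval 0.80 to 1.10) and negative in the 4 others, from -0.96 in 10M and -0.93 in HA through -0.80 in STY to -0.58 in 10D. The STY values rest on 36 counts in the treated and 68 in the untreated library.

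The PP2C gene ptc1 had its highest level in treated WT, and 10D stood between WT and the other strains after treatment. In treated libraries ptc1 was at 24.3 CPM in STY, 25.8 CPM in HA, 54.3 CPM in 10M, 182.2 CPM in 10D and 326.6 CPM in WT. In untreated libraries ptc1 was at 44.1 CPM in STY, 50.4 CPM in HA, 86.5 CPM in 10M, 161 CPM in 10D and 88.6 CPM in WT. The intervals of untreated 10M and untreated WT overlapped, as did those of treated STY and treated HA. The log2 ratio of treated over untreated was 1.88 in WT (interval 1.78 to 1.99) and 0.18 in 10D (interval 0.11 to 0.25), against -0.96 in HA, -0.86 in STY and -0.67 in 10M.

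The second PP2C gene, ptc3, was abundant and nearly even across the libraries. In treated libraries ptc3 was at 442.8 CPM in STY, 415.9 CPM in HA, 492.8 CPM in 10M, 613.7 CPM in 10D and 441.5 CPM in WT. In untreated libraries ptc3 was at 370.3 CPM in STY, 379.7 CPM in HA, 420.1 CPM in 10M, 652.3 CPM in 10D and 424.6 CPM in WT. Its highest and lowest levels were 1.76-fold apart, against 3.76-fold for cmk2, the next most even of the 7. The 10D libraries were the highest in both conditions. Log2 ratios of treated over untreated lay between -0.09 in 10D and 0.26 in STY; scaled by total counts, which moved the median of all genes by up to -0.17, those of HA and WT became -0.02 and -0.11.

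**Figure D2:**
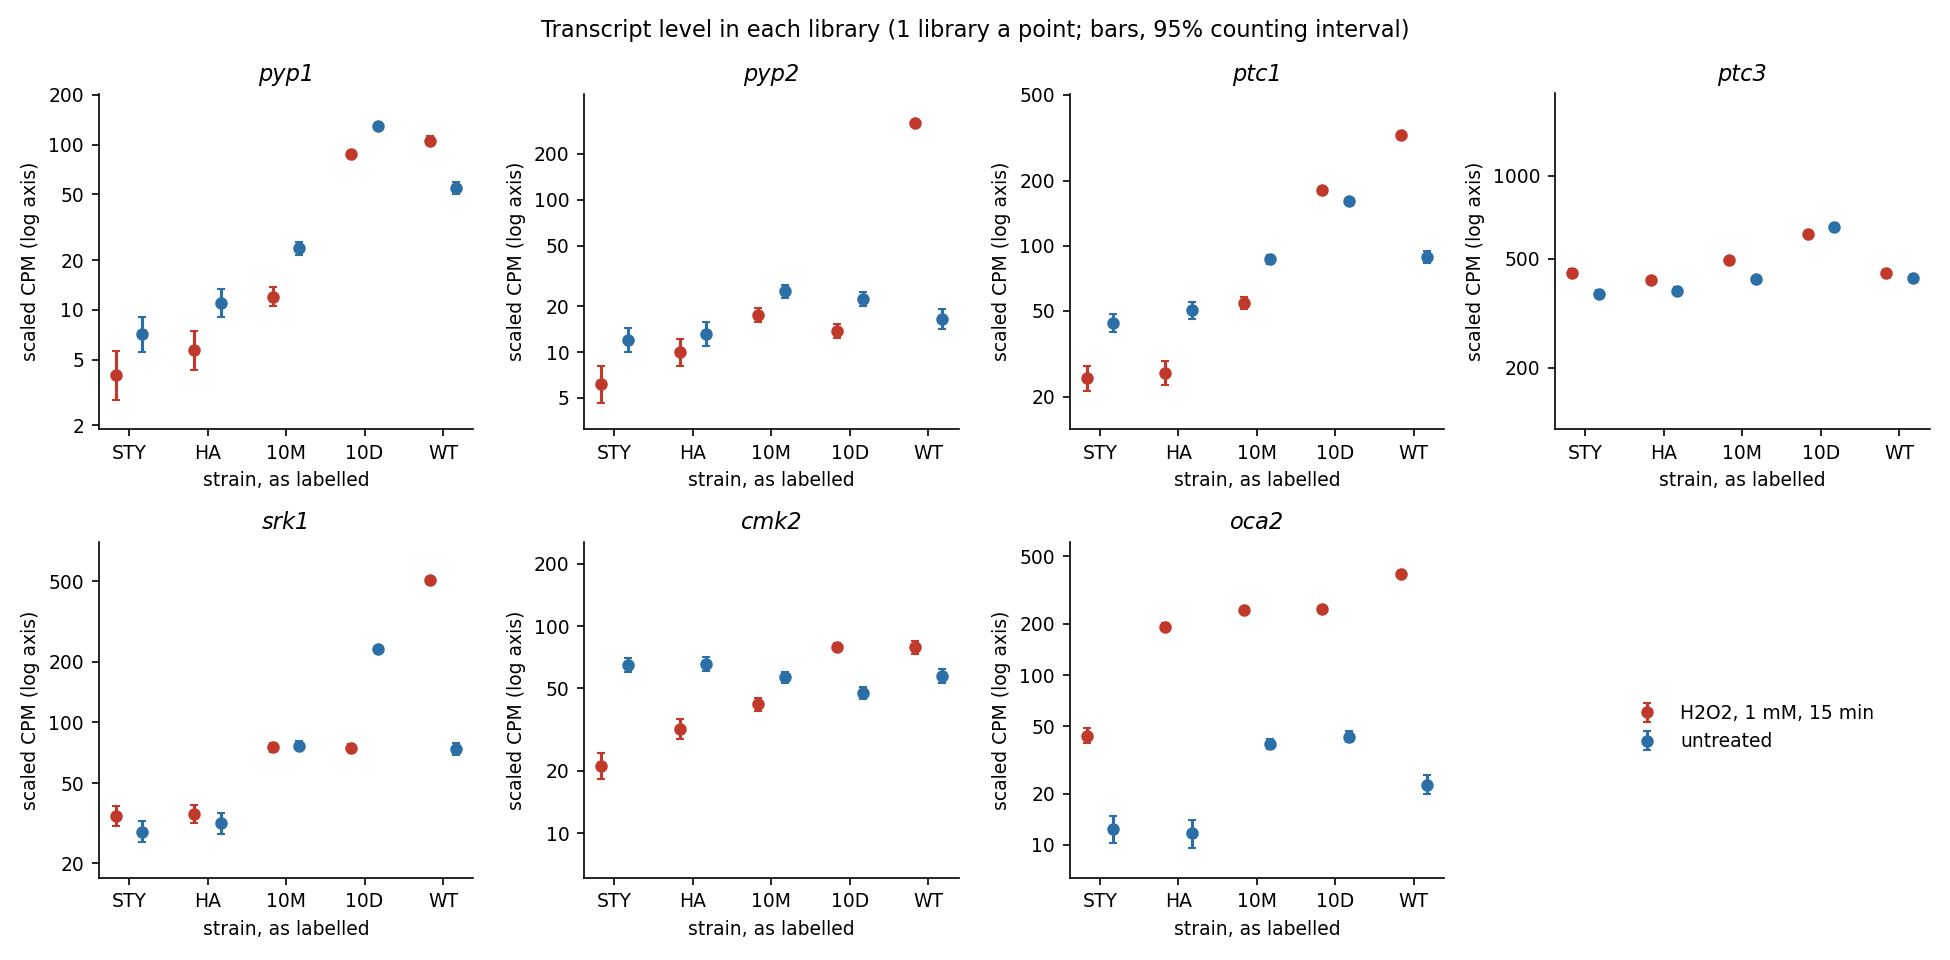
Scaled CPM (log axis) of the 7 genes in each of the 10 libraries, with exact 95% Poisson intervals as error bars; strains run from STY to WT and treated points stand left of untreated points. Treated WT is the highest library for pyp2, ptc1, srk1 and oca2, untreated 10D is the highest for pyp1 and ptc3, and the points of ptc3 lie within 1.76-fold of each other.

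The kinase gene srk1 was highest in treated WT and, among untreated libraries, in 10D. In treated libraries srk1 was at 34.5 CPM in STY, 35.2 CPM in HA, 75.2 CPM in 10M, 75.0 CPM in 10D and 507.3 CPM in WT. In untreated libraries srk1 was at 28.8 CPM in STY, 31.6 CPM in HA, 76.7 CPM in 10M, 231.1 CPM in 10D and 74.0 CPM in WT. After treatment 10D and 10M were level, with a log2 ratio of 10D over 10M of -0.00 (interval -0.10 to 0.10), whereas at rest that ratio was 1.59 (interval 1.50 to 1.68). The log2 ratio of treated over untreated was 2.78 in WT (interval 2.67 to 2.89) and -1.62 in 10D (interval -1.71 to -1.54). In STY, HA and 10M it was 0.26, 0.16 and -0.03, and the intervals of HA and 10M included 0.

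The second kinase gene, cmk2, was even at rest and spread out after treatment. In treated libraries cmk2 was at 21.2 CPM in STY, 31.8 CPM in HA, 42.0 CPM in 10M, 79.5 CPM in 10D and 79.0 CPM in WT. In untreated libraries cmk2 was at 64.9 CPM in STY, 65.4 CPM in HA, 56.6 CPM in 10M, 47.6 CPM in 10D and 57.6 CPM in WT. The 5 treated values followed the order STY, HA, 10M and then 10D beside WT, whose intervals overlapped. Its log2 ratio of treated over untreated was -1.61 in STY (interval -1.86 to -1.38), -1.04 in HA (interval -1.24 to -0.84) and -0.43 in 10M (interval -0.57 to -0.30), and it was 0.74 in 10D and 0.46 in WT.

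The third kinase gene, oca2, was higher in the treated than in the untreated library of all 5 strains. In treated libraries oca2 was at 44.0 CPM in STY, 192.4 CPM in HA, 240.6 CPM in 10M, 243.8 CPM in 10D and 391.1 CPM in WT. In untreated libraries oca2 was at 12.4 CPM in STY, 11.7 CPM in HA, 39.3 CPM in 10M, 43.4 CPM in 10D and 22.7 CPM in WT. Every treated value was above every untreated value, although treated STY, at 44.0 CPM (interval 39.7 to 48.6), was level with untreated 10D. How many of all genes split in this way was not counted. The log2 ratio was 4.10 in WT, 4.02 in HA, 2.61 in 10M, 2.49 in 10D and 1.82 in STY. The intervals of HA (3.76 to 4.33) and WT (3.92 to 4.30) overlapped, and STY, at 1.53 to 2.14, lay below the other 4.

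**Figure D3:**
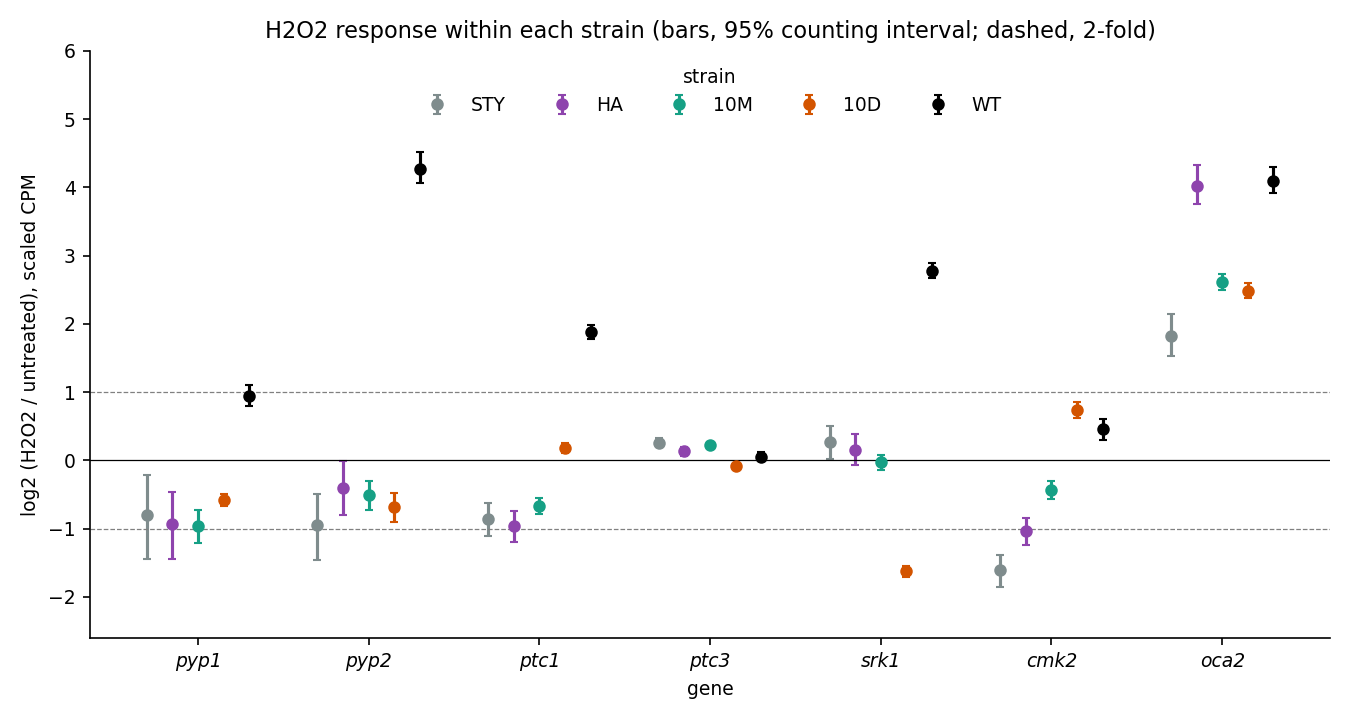
Log2 ratio of treated over untreated scaled CPM for each gene and strain, with 95% binomial intervals of counting error; strains run from STY to WT. Pyp2, ptc1 and srk1 are above 1 in WT and not in the other strains, srk1 is at -1.62 in 10D, and oca2 is between 1.82 and 4.10 in every strain.

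In WT, 4 of the 7 genes (pyp2, ptc1, srk1 and oca2) were higher after treatment by 2-fold or more with an interval that excluded a ratio of 1, as were 9.41% of the 4983 genes, and 0 were lower by as much; 15.9% of genes were 2-fold apart in either direction. The same count was 1 higher (oca2) and 1 lower (cmk2) in STY, where 7.89% of genes were 2-fold apart in either direction. It was likewise 1 higher and 1 lower in HA (11.6% of genes), again oca2 and cmk2. In 10M it was 1 higher, oca2, and 0 lower (6.26% of genes). In 10D it was 1 higher, oca2, and 1 lower, srk1 (14.6% of genes). The difference of these counts between strains was not tested. Another 5 ratios lay just short of 2-fold, at 1.91-fold to 1.95-fold. Among these, pyp1 was higher by as much after treatment in WT, and pyp2 in STY, pyp1 and ptc1 in HA and pyp1 in 10M were lower. Scaled by total counts, the members 2-fold apart were 4 in STY, 4 in HA and 2 in 10M. That scaling also moved the median log2 ratio of all genes by -0.15 in STY and HA and by -0.05 in 10M. The percentages above are for TMM scaling and do not apply to it, and the share of all genes under total counts is not given here. Of 16 annotated genes that overlap the 7, 14 lie on the opposite strand, and as the strand setting of the counting is not given, reads of either strand cannot be told apart; cmk2 had no overlapping gene.

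Tests with an adjusted p came from edgeR's quasi-likelihood fits over all genes that passed its expression filter, with Benjamini-Hochberg adjustment and a threshold of 0.05. No strain was repeated, so their error is not a spread between repeats. In the fits of strain and treatment it is the spread of the response to H2O2 between strains. In the fits that pool STY, HA and 10M it is the spread between those strains. The standard error (SE) given is the size of the log2 change over the root of its F statistic. In a fit of strain and treatment over all 10 libraries, oca2 was the 1 member of the 7 that changed, and 4.9% of 6097 genes were called. Transcripts of oca2 rose by 3.01 on the log2 scale (SE 0.391, edgeR adjusted p = 0.0314), in 5 of 5 strains. Leaving out any single strain kept its value between 2.73 and 3.30 but raised the edgeR adjusted p to between 0.0508 and 0.141, above the threshold each time. Nearly all of the 299 genes called in the main fit lost their call in these refits too, so the loss is not particular to oca2. With WT and STY alone, a choice made after seeing the data, the value of oca2 was 2.99 and the edgeR adjusted p 0.0203. The remaining 6 had log2 changes from -0.45 for pyp1 to 0.26 for srk1.

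The STY, HA and 10M libraries were then taken as 1 pool of 3 strains, and the spread between them was used as the error of the lone WT and 10D libraries. In the pool 2 of the 7 changed with H2O2, against 15.5% of 6176 genes: cmk2 fell by 0.96 (SE 0.234, edgeR adjusted p = 0.0366) and oca2 rose by 2.90 (SE 0.729, edgeR adjusted p = 0.0400). Leaving out STY gave an edgeR adjusted p of 0.0956 for cmk2 and 0.0613 for oca2, and leaving out HA gave 0.369 and 0.365. Leaving out 10M kept cmk2 (edgeR adjusted p = 0.0344), added ptc1 (0.0291) and lost oca2 (0.0543). With strain as a block in the pool 1937 genes passed, against 957 in the main fit. Of the 7, 5 passed with the block: cmk2, oca2 and, lower after treatment, pyp1 (-0.92), ptc1 (-0.82) and pyp2 (-0.60).

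The response of the pool was next set against that of WT, as a difference between these groups of libraries. The response of pyp2 was lower in the pool than in WT by a log2 difference of -4.84 (SE 0.876, edgeR adjusted p = 0.0304), the 1 member called against 5.44% of genes. The differences of ptc1 (-2.67, edgeR adjusted p = 0.0889), srk1 (-2.69, edgeR adjusted p = 0.133), pyp1 (-1.86) and cmk2 (-1.42) had the same sign and did not pass. The call of pyp2 was lost without STY (edgeR adjusted p = 0.0769) and without HA (0.206), with values of -4.70 and -4.85. Without 10M there were 4 calls, with ptc1, srk1 and cmk2 beside pyp2, and with the strain block also 4, with pyp1, ptc1 and srk1 beside it. The percentages of genes given here are those of the main fit, not of refits without a strain or with the block. The number of all genes called moved in those refits as well. With the block it rose to 1059 genes, against 336 in the main fit. The response of 10D set against that of the same pool gave 0 calls in edgeR among the 7 (4.87% of genes). At an unadjusted p under 0.05 there was 1 member (cmk2), beside 1544 of 6176 genes. DESeq2 called 1 member (cmk2), beside 744 genes. With the strain block 2 passed, ptc1 (1.00, edgeR adjusted p = 0.0315) and srk1 (-1.75, 0.00799), among 853 genes, against 301 in the main fit. Without 10M also 2 passed, srk1 (0.0246) and cmk2 (0.0430). In the main fit the log2 differences were 1.70 for cmk2 (SE 0.463, edgeR adjusted p = 0.0840) and -1.71 for srk1 (SE 0.921, edgeR adjusted p = 0.296).

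After H2O2, 5 of the 7 were lower in the pool than in WT, where 21.5% of genes were lower and 37.9% differed in either direction. The log2 differences were -4.80 for pyp2 (SE 0.521, edgeR adjusted p = 0.00129), -3.81 for pyp1 (SE 0.641, 0.00539), -3.38 for srk1 (SE 0.584, 0.00576), -3.22 for ptc1 (SE 0.481, 0.00359) and -1.31 for cmk2 (SE 0.308, 0.0170). The remaining pair did not pass, ptc3 at 0.03 and oca2 at -1.29 (SE 0.891, edgeR adjusted p = 0.285). Without HA 3 calls were left, as pyp1 (edgeR adjusted p = 0.0535) and cmk2 (0.0964) lost theirs. At rest, 0 of the 7 differed between the pool and WT in edgeR, where 0.0648% of genes did, and 0 with DESeq2. At an unadjusted p under 0.05 there was 1 member (pyp1, log2 difference -1.95), beside 431 of 6176 genes. Without 10M, pyp1 (-2.59) and srk1 (-1.29) were lower in the untreated pool, each with an edgeR adjusted p of 0.0489.

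The 10D libraries differed from the pool in pyp1 under both conditions. These contrasts share the pool with those against WT, so their values are not independent of them. At rest pyp1 was higher in 10D by 3.19 (SE 0.626, edgeR adjusted p = 0.0498), the 1 member called among 2.67% of genes. That call was lost without STY (edgeR adjusted p = 0.131) and without HA (0.313), and without 10M ptc1, ptc3 and srk1 passed as well. After H2O2 pyp1 was higher in 10D by 3.52 (SE 0.636, edgeR adjusted p = 0.00863), ptc1 by 2.37 (SE 0.483, 0.0124) and cmk2 by 1.31 (SE 0.304, 0.0190), where 31% of genes differed and 18.6% were higher. Without HA these 3 calls were lost, with edgeR adjusted p from 0.0739 to 0.111, and without 10M there were 5, with ptc3 and srk1. The number of all genes called also moved in the refits without a strain, and the percentages here are those of the main fits. The transcripts pyp2, srk1 and oca2 were not called in treated 10D against the treated pool, with log2 differences of 0.26, 0.62 and 0.60. They had their highest level in treated WT, but so did ptc1, which was called.

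A fit of strain and treatment over the 8 libraries labelled as sty1 deletions compared the forms of Atf1 over both treatments together. Its error was the difference of the H2O2 response between strains, with the treated and untreated library of a strain in place of repeats. In 10D against HA, pyp1 was higher by 3.73 (SE 0.209, edgeR adjusted p = 0.00365) and ptc1 by 2.27 (SE 0.310, edgeR adjusted p = 0.0152), 2 of the 7 against 6.95% of genes. Both held under the 5 alternatives tried, with edgeR or DESeq2 adjusted p of at most 0.0224 for pyp1 and 0.0482 for ptc1. The difference of srk1 was 2.101 (SE 0.493, edgeR adjusted p = 0.0649) and that of ptc3 0.67 (SE 0.173, edgeR adjusted p = 0.0805); DESeq2 called both. In 10M against HA, edgeR called 0 of the 7 and 0% of 6133 genes, with 474 genes and 4 members at an unadjusted p under 0.05, while DESeq2 called 116 genes, pyp1 among them. The values of 10M against HA were 1.08 for pyp1 (SE 0.195, edgeR adjusted p = 0.201), 0.91 for ptc1, 0.87 for pyp2 and 1.18 for srk1, all higher in both conditions; without 10D, ptc1 and srk1 passed. In HA against STY, edgeR and DESeq2 called 0 of the 7 (0.0163% of genes in edgeR). At an unadjusted p under 0.05 there was 1 member (pyp1, 0.57), beside 159 of 6133 genes. The largest value of the 7 was that of oca2, 1.16 (SE 0.506), taken over both treatments together. Its log2 ratio of HA over STY was 2.13 in treated libraries (interval 1.97 to 2.29) and -0.08 in untreated libraries (interval -0.47 to 0.30). The atf1 transcript also differed between these strains, and its part in these differences was not tested.

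**Figure D4:**
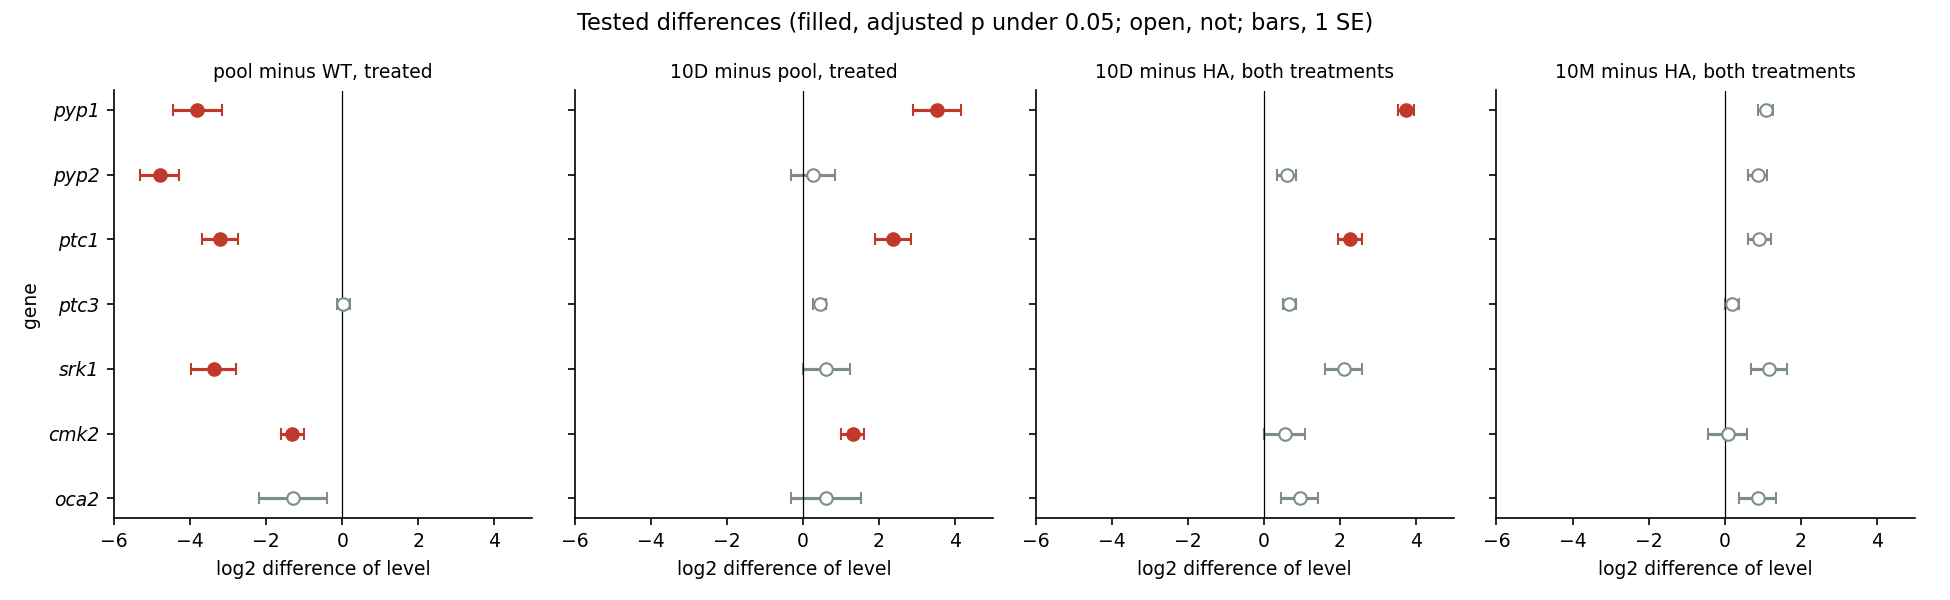
Log2 differences of level for the 7 genes in 4 tested comparisons, with bars of 1 SE; filled points have an edgeR adjusted p under 0.05. In the treated pool against treated WT, 5 genes are filled and lie below 0, whereas in 10D against HA pyp1 (3.73) and ptc1 (2.27) are filled and in 10M against HA no point is.

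Other genes of the pathway were taken from 5 lists of 33 genes, all tested: the kinase cascade and its sensors (10 genes), transcription factors (4), relatives of the phosphatases (5), relatives of the kinases (8), and mitotic targets with binding partners (6). In the response shared by the strains 1 of these 33 rose and 2 fell by edgeR, against 2.07% of all genes tested higher and 2.84% lower. The tyrosine phosphatase gene pyp3, a relative of pyp1 and pyp2 that acts on the mitotic kinase Cdc2, rose by 1.10 (SE 0.147, edgeR adjusted p = 0.0314) and had the highest value of the 33. The gene of Cdc25, the phosphatase that Srk1 restrains, fell by 1.33 (SE 0.236, edgeR adjusted p = 0.0384), the lowest of the 33. The checkpoint kinase gene chk1 fell by 0.55 (SE 0.115, edgeR adjusted p = 0.0493). These calls were lost when any single strain was left out. So were nearly all of the 299 genes called in the main fit, so the loss is not particular to these genes.

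In treated libraries pyp3 was at 55.1 CPM in STY, 86.5 CPM in HA, 128.4 CPM in 10M, 100.3 CPM in 10D and 111.8 CPM in WT. In untreated libraries pyp3 was at 32.2 CPM in STY, 31.4 CPM in HA, 48.9 CPM in 10M, 59.7 CPM in 10D and 51.4 CPM in WT. In treated libraries cdc25 was at 15.3 CPM in STY, 9.35 CPM in HA, 21.5 CPM in 10M, 45.2 CPM in 10D and 54.3 CPM in WT. In untreated libraries cdc25 was at 46.3 CPM in STY, 42.1 CPM in HA, 46.0 CPM in 10M, 115.9 CPM in 10D and 76.8 CPM in WT. Both moved in 1 direction in all 5 strains, pyp3 upward and cdc25 downward, and the highest library of cdc25 was untreated 10D, as for pyp1 and ptc3.

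In the pool alone 1 of the 33 rose with H2O2, pyp3, and 4 fell by edgeR: cdc25 (-1.52), wee1 (-1.74), ssp1 (-1.24) and wis4 (-0.46). Over all genes 5.18% were higher and 10.3% lower, so the share of the lists was near the background. Wee1 is the kinase that opposes Cdc25, Ssp1 a kinase of the CaMKK type and Wis4 a MAPKKK above Wis1. Set against WT, the response of wis4 was lower in the pool by -1.47 (SE 0.242, edgeR adjusted p = 0.0259), the 1 call of the 33, where 5.44% of all genes were called. All 5 pool calls and this one were lost without HA; without STY this one was lost as well and wee1 was the 1 pool call left, and without 10M wis4 was lost from the pool calls. In the treated pool against treated WT 11 of the 33 were lower and 4 higher, where 21.5% of all genes were lower and 16.4% higher; the median log2 difference was -0.71 over the 33 and -0.01 over all genes. The lower ones were the sensor and relay genes mak1, mak2, mak3, mpr1 and wis4 (-2.32 to -0.78 for the 3 mak genes, -3.11 for mpr1, -1.89 for wis4), pcr1 (-3.99), which encodes the partner of Atf1, the kinase genes cmk1, ssp1 and mkh1 (-1.89 to -1.15), and cdc25 (-1.80) and wee1 (-2.74). The higher ones were tdh1 (3.72), rad24 (1.07), azr1 (0.72) and rad25 (0.67). Without HA 9 of these 15 calls were left, without STY 13 (azr1 and cdc25 lost) and without 10M 14 (azr1 lost).

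In treated 10D against the treated pool 13 of the 33 were higher and 2 lower, with the pool shared, where 18.6% of all genes were higher and 12.4% lower; the median log2 difference was 0.59 over the 33 and 0.03 over all genes. The higher ones were mak1, mak2, mak3, mpr1, wis4, pcr1, pap1, prr1, ssp1, hal4, mkh1, cdc25 and wee1 (0.63 to 2.24), and the lower ones tdh1 (-2.82) and rad24 (-1.06); without HA 4 of the 15 were left and without STY 10. Over both treatments, 10D exceeded HA by edgeR in mpr1 (2.30, SE 0.154, adjusted p = 0.00365) and cdc25 (1.81, SE 0.283, adjusted p = 0.0217), 2 of the 33 where 6.95% of all genes were called; cdc25 was lost without STY. Between HA and STY 1 of the 33 was called, sty1 itself, at 3.76 (SE 0.174, edgeR adjusted p = 0.00485); it was lost without 10M. Between 10M and HA edgeR called 0 of the 33, with 4 at an unadjusted p under 0.05, as were 474 of 6133 genes, and DESeq2 called 2.

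**Figure D5:**
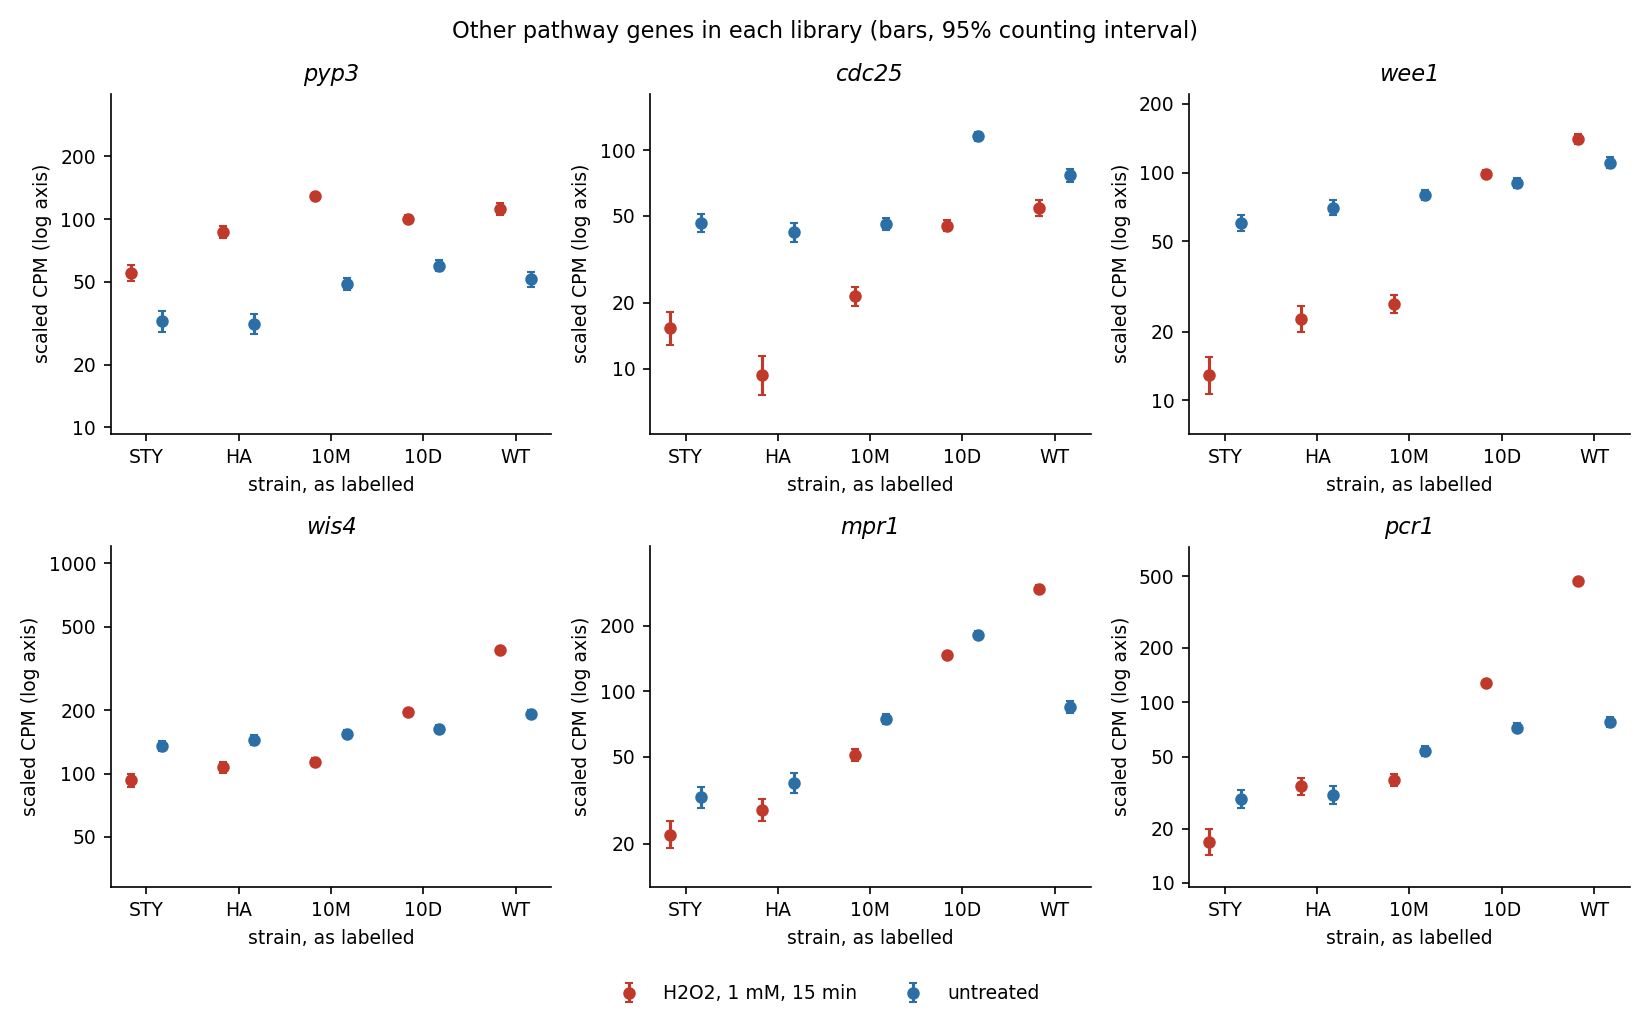
Scaled CPM (log axis) of pyp3, cdc25, wee1, wis4, mpr1 and pcr1 in each of the 10 libraries, with exact 95% Poisson intervals; treated points stand left of untreated points. Treated is above untreated for pyp3 and below it for cdc25 in every strain, and mpr1 and pcr1 are highest in treated WT, at 295.6 and 472 CPM.

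The 7 genes did not share a single pattern over the 10 libraries. Pearson correlations of log2 levels between pairs of them, which share libraries and are given as a description, ran from -0.00 for cmk2 with oca2 to 0.951 for pyp1 with ptc1. The 2 next highest were 0.872 for ptc1 with srk1 and 0.865 for pyp2 with srk1. Of the genes outside the 7, those most like each by this measure were abp1 (0.981), git5 and ubp15 for pyp1; cip1 (0.934), pof2 and ght2 for pyp2; and SPAC3A12.06c (0.994), SPAC1B3.20 and mpr1 (0.986) for ptc1. They were new13 (0.966), SPNCRNA.1580 and sym1 for ptc3 and gut2 (0.971), arp2 and knh3 for srk1. For cmk2 they were ahk1 (0.985), pex5 and ppr7, and for oca2 they were pyp3 (0.972), SPBC409.08 and SPNCRNA.609.

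Levels between genes were compared per kilobase of annotated mRNA. The median over libraries was 251.8 CPM per kb for ptc3, far above 37.9 for ptc1, 30.1 for cmk2, 22.5 for srk1, 10.3 for oca2, 9.63 for pyp1 and 5.95 for pyp2. The range over libraries, highest over lowest level, was in nearly the opposite order, 51.9-fold for pyp2, 33.4-fold for oca2, 32.2-fold for pyp1, 17.6-fold for srk1, 13.5-fold for ptc1, 3.76-fold for cmk2 and 1.76-fold for ptc3. In treated WT pyp2 reached 126 CPM per kb, against 6.47 CPM per kb in untreated WT, a level below that of ptc1, at 175.9 CPM per kb in treated WT.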

How the data were processed

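PolyA RNA was sequenced from 5 strains with and without H2O2, 1 library each. The authors deposited 1 table of raw read counts per gene; per the submitters' processing notes, FastQC, TopHat2 2.1.1 and HTSeq were used, and the genome build, annotation and strand setting are not given in the sources used here. Samples were grouped by their labels, and all 10 count columns were joined by the names in the labels. Of 7017 genes, 6843 were matched by name to ASM294v3 and 174 were not. Library totals ran from 9178795 to 26503471 counts; a count of 0 allows up to 3 counts, 0.120 to 0.337 scaled CPM.

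Counts were scaled with TMM factors of edgeR 4.0.16 in R 4.3.3. Ratios within a strain used a prior count of 2 and exact binomial 95% intervals, and a gene was apart at 2-fold or more with an interval excluding 1, among genes averaging 10 CPM or more. Tests were edgeR quasi-likelihood fits on genes kept by filterByExpr, with Benjamini-Hochberg adjustment at 0.05. The main fits had 3 or 4 residual degrees of freedom. Refits without a strain or with the strain block had fewer than the main fit they repeat. The code was tested on simulated data. No label says that libraries are separate cultures of a strain. The p-values therefore rest on the spread between pooled strains or on that of the H2O2 response between strains. Alternatives were DESeq2 1.42.0, other scalings, filters and prior counts, left-out strains and a strain block. List genes were named if called or if highest or lowest in the shared response, and the 3 genes with the highest correlation with each member were named. The members and lists were chosen with earlier results of these data known. A coding sequence or protein was not used here.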

Additional observations from a re-analysis of the deposited data

Results flagged for a closer look

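The response of pyp2 to H2O2 differed between the pooled STY, HA and 10M libraries and WT by a log2 difference of -4.84 (SE 0.876, edgeR adjusted p = 0.0304), a test of the difference between groups itself. Its level after treatment was 6.19, 9.96 and 17.5 CPM in STY, HA and 10M, against 320.8 CPM in the 1 treated WT library. In treated 10D it was at 13.8 CPM. The sty1 level differed between the pooled strains, from 9.11 CPM in treated STY to 125.3 CPM in treated HA, and its part in the difference was not tested.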

How the results depend on the processing

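The labels carry no replicate numbers, so treated and untreated libraries could be paired by strain only. The fits of strain and treatment kept this pairing. The main pool fits did not, and strain as a block in the pool was run to restore it there. Of 483 repeats of the members' tested values, 420 kept their direction and side of the threshold, 31 gained a call, 19 lost one and 13 turned direction, none of these 13 with a call. Of 140 repeats of ratios within a strain, 131 stayed within the counting interval.

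Leaving out 1 strain at a time gave 0 members and 0 to 6 genes called in the shared response, 0 to 2 members and 0 to 693 genes in the pool response, 0 to 4 members and 0 to 650 genes in the response of pool minus WT, and 0 to 2 members and 0 to 485 genes in that of 10D minus pool. For levels at rest it gave 0 to 2 members and 0 to 42 genes (pool minus WT), and 0 to 4 members and 25 to 430 genes (10D minus pool). For levels after H2O2 it gave 3 to 5 members and 716 to 2658 genes (pool minus WT), and 0 to 5 members and 420 to 2406 genes (10D minus pool). Over both treatments it gave 0 to 5 genes (HA minus STY), 0 to 2 members and 0 to 155 genes (10M minus HA), and 167 to 188 genes (10D minus HA).

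The same left-out strains turned small differences. In the shared response the log2 change of pyp2 ran from -0.63 to 0.38, of ptc1 from -0.57 to 0.13 and of srk1 from -0.30 to 0.75. In the response of 10D minus pool that of oca2 ran from -0.82 to 0.016. At rest, pool minus WT ran from -0.38 to 0.21 for pyp2 and from -0.91 to 0.18 for oca2. After H2O2, pool minus WT ran from -0.038 to 0.12 for ptc3 and 10D minus pool from -0.032 to 0.76 for pyp2. In the shared response, WT and STY alone, a choice made after seeing the data, gave 20 genes, with 0.15 for pyp1 and 0.54 for ptc1.

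DESeq2 called 1140 genes in the shared response, 807 genes and 3 members in pool minus WT, 744 genes and 1 member in 10D minus pool, 66 genes for pool minus WT at rest, 402 genes and 3 members for 10D minus pool at rest, 21 genes (HA minus STY), 116 genes and 1 member (10M minus HA), and 986 genes and 4 members (10D minus HA). The strain block called 1937 genes and 5 members in the pool response, 1059 genes and 4 members in pool minus WT, and 853 genes and 2 members in 10D minus pool. Scaled by total counts, 4, 4 and 2 members were 2-fold apart within STY, HA and 10M, and by DESeq2 size factors, 1 was within HA. The shares of all genes given for these ratios in the results are those under TMM scaling. At a minimum of 1 CPM, 898 genes were 2-fold apart within HA and 609 within 10M. The cause of these shifts was not tested. Depth limited pyp1 in STY, where the 2 libraries held 36 and 68 counts, and no alternative replaces repeats of a strain.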
